A study of Mus musculus with 6 samples.

Results

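The 32 genes described here carry fatty acids into the heart muscle cell, burn them in the mitochondrion and use ketone bodies, and they were compared in heart muscle cells of mice injected with α-ketoglutarate (AKG) or with saline. They were taken as the rows of the deposited table whose gene symbol was on a list of members, and all 32 were found among 22063 rows. The members fell into 5 roles: 6 genes of uptake and activation, 5 of the carnitine shuttle, 15 of β-oxidation and electron transfer, 3 thioesterases with the uncoupling protein gene Ucp3, and 2 of ketone use. The rule itself used gene names only, but the list of members was chosen with earlier results of these data known.

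The mice were wild-type, and the labels gave postnatal day 21 both to the treatment and to the harvest. Heart muscle cells were freed from the heart by the Langendorff method, in which enzymes are perfused through the coronary vessels. The AKG group received AKG at 300 mg per kg per day for 2 weeks, and the Control group received phosphate-buffered saline (PBS) on the same schedule. Each group held 3 libraries made from mRNA, and it is not stated how many mice went into a library, so all p-values measured only the spread between libraries.

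The adult heart draws most of its energy from long-chain fatty acids. They are freed from lipoproteins by lipoprotein lipase, enter the cell with the help of CD36 and fatty acid transport proteins, are activated to acyl-CoA, and cross the inner mitochondrial membrane as acylcarnitines. Inside, repeated rounds of dehydrogenation, hydration, dehydrogenation and thiolysis shorten the chain and pass electrons to the respiratory chain. Ketone bodies are a further fuel, taken in by monocarboxylate transporters and converted to acetyl-CoA in the mitochondrion. Around birth the heart turns from glucose and lactate to fatty acids, and many genes named below are targets of the nuclear receptors of the PPAR family.

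Libraries held 14402876 to 17797368 counts. Markers of the labelled cell type were abundant. The 8 heart muscle cell genes summed to 51177 to 55190 CPM (counts scaled to the size of the library) in the Controls. After AKG they summed to 27325 to 30730 CPM, with 6 of 8 lower. Myh6 was the most abundant of them, at a mean of 27743 CPM and then 12427 CPM. Pln (3238 and 3216 CPM) and Actn2 (1644 and 1502 CPM) did not pass the test used below. Markers of smooth muscle cells and pericytes summed to 1994 to 2173 CPM and then 978 to 1175 CPM, with 6 of 7 lower, and those of macrophages to 85.9 to 126 CPM and then 51.3 to 71.2 CPM, with 3 of 6 lower. Fibroblast markers summed to 2208 to 2752 CPM and then 1987 to 2599 CPM, with 3 of 6 lower and 1 higher. Neutrophil markers summed to 0.515 to 1.09 CPM and then 3.77 to 9.16 CPM, with both tested genes higher and Ly6g at 0 throughout. The part of these differences in the results below was not tested. In a bulk preparation, fewer cells of a type, less RNA per cell and a change of the marker genes themselves cannot be told apart. Atrial markers summed to 359 and 220 CPM in AKG 1 and AKG 3, against 7.58 CPM in AKG 2 and 6.40 to 12.05 CPM in the Controls. Y-linked transcripts were nearly missing from Control 2 (0.311 CPM). They stood at 168 and 176 CPM in Control 1 and Control 3. In AKG 1, AKG 2 and AKG 3 they were lower than that, at 89.2, 50.4 and 39.0 CPM. The part of the Y-linked difference in the results below was not tested. Mitochondrially encoded transcripts took 40.8 ± 2.44% of counts in the Controls and 29.0 ± 2.99% after AKG (SD, n = 3). CPM above and below are of a library total scaled by TMM (a trimmed mean of log ratios between libraries). A change is thus relative to the bulk of genes. Over all genes tested, 25.2% were lower and 25.0% higher, beside the marker counts above. Scaled to the library total, as the deposited FPKM is, Myh6 had means of 7537 and then 3875, Tnni3 2624 and 1499. Myl2 had 6586 and 4974, Tnnt2 4638 and 3960, and Ryr2 77.7 and 70.9. Ttn had 62.6 and 63.0, Actn2 473 and 585, and Pln 1358 and 1983. With plain total counts as the scaling, the median over all genes of the log2 fold change moved from 0.0029 to 0.45. Of the tested members, 22 were below 0 with TMM scaling and 13 with total counts.

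Relative to the bulk of genes, most genes of fatty acid breakdown were lower after AKG, while a pair of thioesterases and one isoform of the carnitine shuttle were higher. Of the 32 members, 31 passed the low-count filter, and Bdh1 did not. Of these 31, 20 fell and 4 rose at an adjusted p under 0.05, and 7 did not pass. Over all 13117 genes tested, 25.2% were lower and 25.0% higher by the same rule, or 50.2% in either direction. Among the members the shares were 64.5% and 12.9%. The median log2 fold change of the tested members was -0.38, against 0.0029 for all genes. With total counts as the scaling 7 members were lower and 12 higher (22.6% and 38.7%), where 9.12% and 56.7% of all genes were, and the members' median was 0.068 against 0.45. The 7 that stayed lower in that fit were Cpt2, Acadvl, Decr1, Etfb, Acot13, Ucp3 and Oxct1, and the 4 that rose in both were Slc27a1, Cpt1a, Acot1 and Acot2. The Control and AKG libraries did not overlap for 26 members tested, 5 of them higher and 21 lower after AKG, while 29.4% of all tested genes lay wholly higher and 29.9% wholly lower, or 59.2% in either direction. AKG 2 was the AKG library whose atrial markers lay within the Control range. With it alone, the members' median log2 fold change was -0.36, against -0.0059 for all genes. That fit takes its spread from the Controls, and the lone AKG library is assumed to vary like them. Without Control 2, 19 members were lower and 3 higher, where 2904 and 2843 of all 13296 genes tested were.

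**Figure D1:**
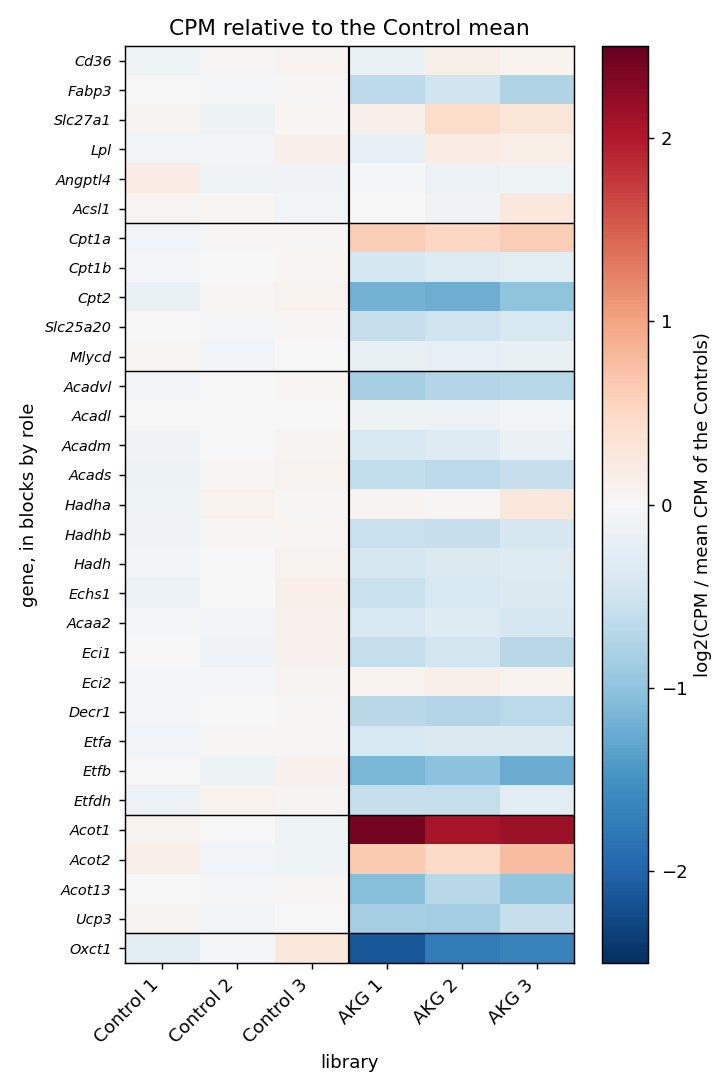
Each row is a tested member and each column a library, and the colour gives log2 of its CPM over the mean CPM of the 3 Controls, with black lines between roles. The 3 AKG columns were alike for most genes: Acot1, Acot2 and Cpt1a were above the Controls in every AKG library, and Oxct1, Cpt2 and Etfb were below them in every AKG library.

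The members were abundant transcripts. Of all 32, Fabp3, the fatty acid binding protein of heart and skeletal muscle, had the highest level per length, at 2738 ± 75.7 FPKM in the Controls and 2401 ± 109 FPKM after AKG (the deposited value, which allows for gene length, SD, n = 3). It alone held 34.9 ± 0.785% of the members' summed FPKM in the Controls and 30.9 ± 2.21% after AKG. Etfb stood at 576 ± 28.2 FPKM and Acaa2 at 449 ± 25.2 FPKM in the Controls, followed by Acadl at 409 ± 16.7 FPKM. At the other end, Bdh1 was all but missing. The 32 genes together took 1.29 ± 0.0699% of all counts in the Controls and 1.40 ± 0.0985% after AKG. Of counts outside the mitochondrial genome they took 2.17 ± 0.0427% and 1.97 ± 0.0768%, so the direction of the summed share depended on whether mitochondrially encoded counts were part of the total.

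**Figure D2:**
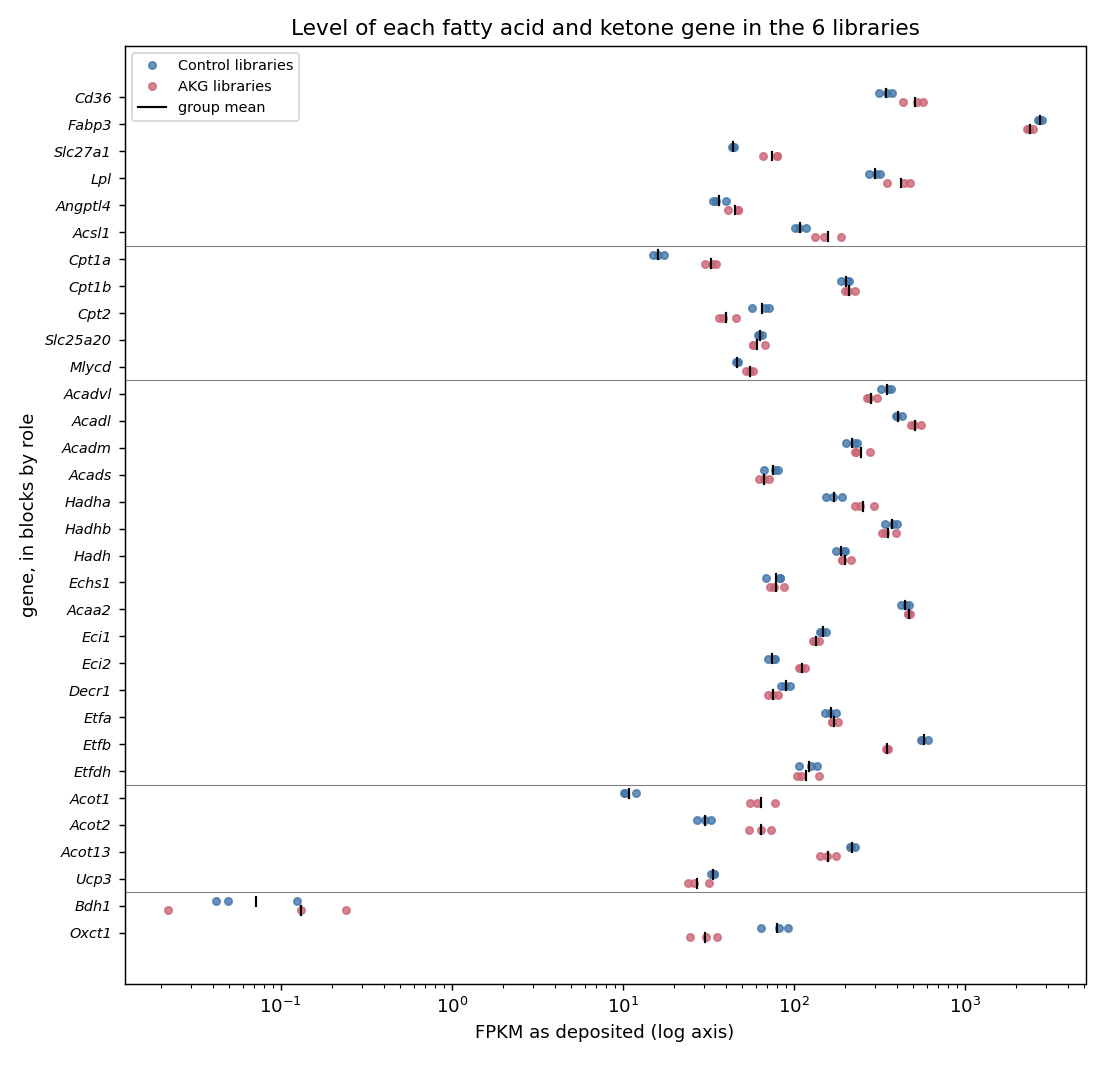
Points give the deposited FPKM of each member in each library on a log axis, with black ticks for the group means and grey lines between roles. Fabp3 lay above all others in every library and Bdh1 below all others, and the other 30 members lay between them.

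Genes of uptake and activation mostly did not pass the test. Of the 6, 1 rose (Slc27a1) and 1 fell (Fabp3), with a median log2 fold change of 0.044, beside 25.0% and 25.2% of all genes. With total counts as the scaling 5 were higher and 0 lower (median 0.49), where 56.7% and 9.12% of all genes were (median 0.45). Cd36, the main fatty acid translocase of the plasma membrane, stood at 1029, 1128 and 1152 CPM in the Controls and 983, 1229 and 1166 CPM after AKG. The groups overlapped, and the log2 fold change was 0.030 (SE 0.0994, adjusted p = 0.822 in edgeR's quasi-likelihood test). Lpl, which encodes lipoprotein lipase, stood at 1370, 1371 and 1563 CPM and then at 1247, 1632 and 1602 CPM, again with overlap (log2 fold change 0.058, SE 0.111). Angptl4 encodes a secreted inhibitor of lipoprotein lipase. It stood at 93.1 ± 11.3 CPM in the Controls and 87.3 ± 3.65 CPM after AKG, with a log2 fold change of -0.094 (SE 0.0875) that turned to 0.35 with total counts. Acsl1, the main acyl-CoA synthetase of the adult heart, stood at 495 ± 20.6 and 517 ± 66.9 CPM (log2 fold change 0.063, SE 0.0968). The highest AKG value of Acsl1, 592 CPM in AKG 3, lay above every Control, and with AKG 2 alone the log2 fold change was -0.090.

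Slc27a1 and Fabp3 moved in opposite directions. Slc27a1, a fatty acid transport protein with acyl-CoA synthetase activity, stood at 144, 126 and 142 CPM in the Controls and 150, 189 and 170 CPM after AKG. All AKG libraries lay above all Controls, AKG 1 by the least, and the gene rose by 0.30 on the log2 scale (SE 0.0931, edgeR quasi-likelihood adjusted p = 0.016). This call was lost without Control replicate 2 (adjusted p = 0.0971) and without AKG replicate 2 (0.066), and over all 15 alternatives the adjusted p ran from 4.96e-06 to 0.0971. Fabp3 stood at 2645, 2567 and 2675 CPM and then at 1682, 1856 and 1558 CPM. It fell by 0.63 on the log2 scale (SE 0.0949, adjusted p = 0.000104), with every AKG library far below the lowest Control, and with total counts its log2 fold change was -0.19 (adjusted p = 0.0714). Among annotated mouse transcripts, 21.7% of the 100-base stretches of the Fabp3 transcript also occurred in Fabp3-ps1, so part of its reads may be shared.

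Transcripts of other cell types that handle fatty acids were measured beside this role. Endothelial markers (7 genes) summed to 1442 to 1570 CPM in the Controls and 1517 to 1799 CPM after AKG. Of these, 3 were higher and 2 lower, beside 25.0% and 25.2% of all genes. The part of endothelial cells in the levels of Cd36 and Lpl was not tested. Adipocyte markers were at or near 0: Cidec, Lep, Retn and Cfd had no count in any library, and the list of 7 summed to at most 0.0736 CPM in the Controls and 0.166 CPM after AKG, below the 0.166 to 0.221 CPM that 3 counts are worth or, in 1 library, equal to it.

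The isoforms of carnitine palmitoyltransferase I, the outer-membrane enzyme that commits acyl-CoA to oxidation, moved apart. Cpt1a, the isoform of liver and of the fetal heart, rose from 77.6, 83.5 and 83.0 CPM in the Controls to 124, 116 and 125 CPM after AKG. Every AKG library lay above every Control, and the log2 fold change was 0.58 (SE 0.0716, edgeR quasi-likelihood adjusted p = 1.96e-05). Cpt1b, the isoform of adult muscle, stood at 626, 647 and 670 CPM and then at 478, 514 and 529 CPM. It fell by 0.35 (SE 0.0811, adjusted p = 0.00259) relative to the bulk of genes, whereas with total counts its log2 fold change was 0.092 (adjusted p = 0.396). The ratio between isoforms does not depend on the scaling. In log2 counts of Cpt1a over Cpt1b it was -2.99 ± 0.0341 in the Controls and -2.06 ± 0.105 after AKG, a 1.91-fold shift with no overlap (exact two-sided permutation p = 0.1, the smallest that 3 libraries against 3 allow, and 0.12 adjusted over 6 gene pairs). Per length, Cpt1b remained the more abundant isoform, since the FPKM of Cpt1a was 0.0801 of that of Cpt1b in the Controls and 0.155 of it after AKG. Of the 100-base stretches of the Cpt1b transcript, 91.1% also occurred in transcripts of Gm44502. The raw counts of Gm44502, not scaled to library size, summed to 3019 in the Controls and 3197 after AKG. With these counts added to Cpt1b the shift of the log2 ratio was 0.91 instead of 0.93.

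The promoter of Cpt1a is shown because this was the shuttle gene that rose. The sequence is RefSeq's for build GRCm38.p6, chr19:3323051-3323350 on the plus strand, from 250 bases before to 50 bases after the start of the gene. Capitals mark the single match to AGGTCA on either strand, the half-site that PPAR and related receptors bind in pairs.
Cpt1a: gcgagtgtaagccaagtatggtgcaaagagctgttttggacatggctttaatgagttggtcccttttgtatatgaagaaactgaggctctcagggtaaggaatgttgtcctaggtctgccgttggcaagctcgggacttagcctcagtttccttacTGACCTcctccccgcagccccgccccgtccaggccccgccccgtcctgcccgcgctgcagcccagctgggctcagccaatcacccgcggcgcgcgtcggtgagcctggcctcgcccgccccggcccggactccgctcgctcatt
Windows were found for 26 of the 32 members. With both strands searched, AGGTCA occurred in those of 6 of these 26 genes (Cd36, Cpt1a, Ucp3, Acadm, Acadvl and Echs1), or 23.1%, beside 18.1% of all genes with a window. The paired form DR1, a direct repeat of this half-site with 1 base between, was in 0 of 26 and in 0.0481% of all genes. The GC box GGGCGG was in 18 of 26, or 69.2%, beside 38.2% of all genes. CCAAT was in 12 of 26, or 46.2%, beside 41.1%.

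The remaining genes of the shuttle were lower. Cpt2, which turns acylcarnitine back to acyl-CoA at the inner membrane, stood at 159, 186 and 191 CPM in the Controls and 78.4, 76.3 and 88.6 CPM after AKG. The groups lay far apart, and Cpt2 fell by 1.14 on the log2 scale (SE 0.0896, edgeR quasi-likelihood adjusted p = 3.61e-07), a fall that also passed with total counts (-0.70). Slc25a20, the carnitine-acylcarnitine carrier between these enzymes, fell from 131 ± 3.16 to 93.4 ± 5.77 CPM (log2 fold change -0.49, SE 0.0731). With total counts its log2 fold change was -0.045 and did not pass. Mlycd, malonyl-CoA decarboxylase, removes the inhibitor of carnitine palmitoyltransferase I. It fell by 0.19 (SE 0.0688, adjusted p = 0.0301), from 116 ± 4.41 to 101 ± 0.521 CPM. That call did not hold without Control replicate 1 (adjusted p = 0.116), without Control replicate 3 (0.0876), without AKG replicate 1 (0.0598), without AKG replicate 2 (0.0733), with DESeq2 (0.0525), without the low-count filter (0.0568) or with AKG 2 alone (0.0755), and with total counts Mlycd was higher (0.25, adjusted p = 0.0151). Over the 15 alternatives its adjusted p ran from 0.0151 to 0.116.

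**Figure D3:**
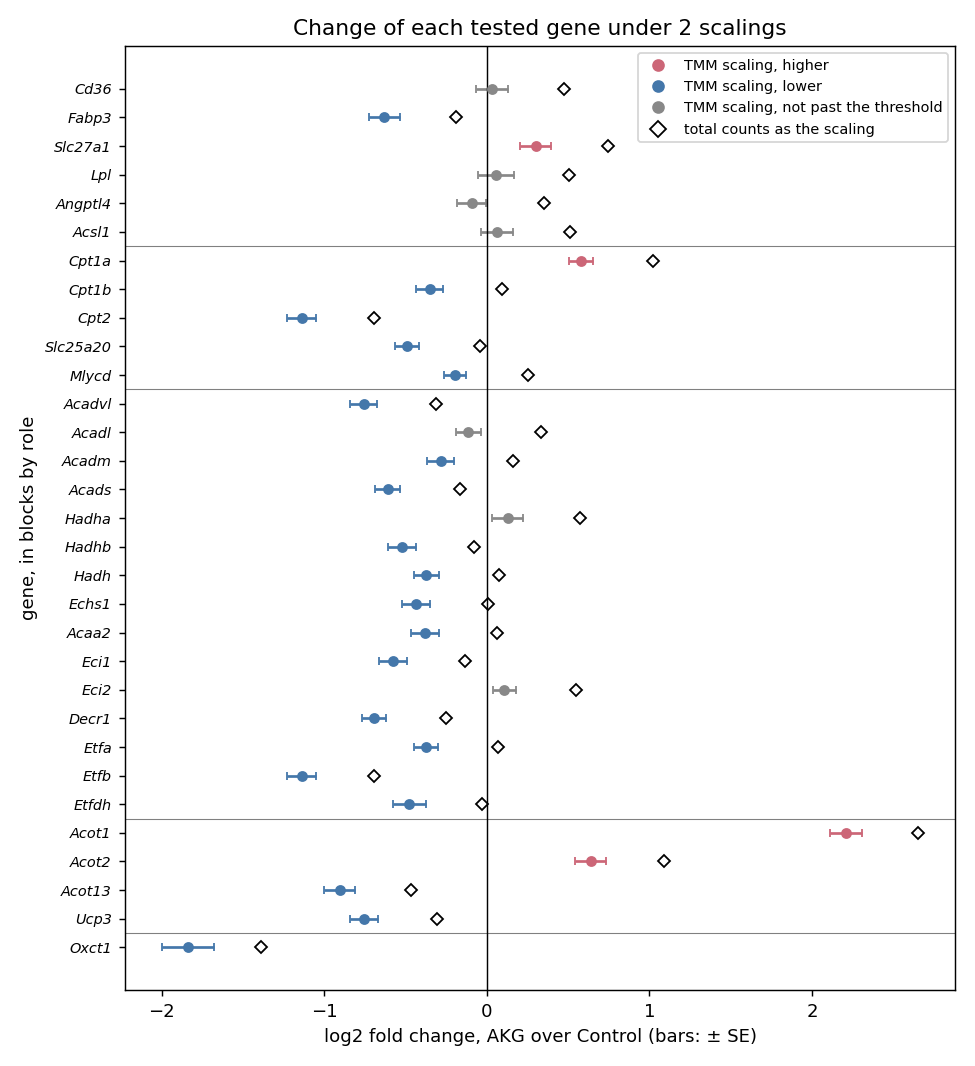
Filled circles give the log2 fold change of each tested member with TMM scaling, with its SE as a bar, coloured by its call, and open diamonds give the value with total counts as the scaling. The diamonds lie to the right of the circles for every gene, by about as much as the median of all genes moved, and many β-oxidation genes move from below 0 to about 0.

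Relative to the bulk of genes, most enzymes of β-oxidation were lower after AKG. Of 15 tested, 12 fell and 0 rose, beside 25.2% and 25.0% of all genes. The median of these 15 was -0.44, and 13 had all AKG libraries below all Controls, as 29.9% of all tested genes did. With total counts 3 were lower and 3 higher (median 0.0069), where 9.12% and 56.7% of all genes were. Most of the falls with TMM scaling were thus about as large as the shift between the scalings. Mitochondrial genes outside the members leaned the same way: of 1643 tested genes with a deposited mitochondrial annotation that were neither members nor encoded in the mitochondrial genome, 782 were lower and 289 higher (median -0.28). The acyl-CoA dehydrogenases start each round of the cycle, each for a range of chain lengths. Acadvl, for very long chains, stood at 843, 891 and 922 CPM and then at 497, 531 and 542 CPM, and fell by 0.76 (SE 0.0827, edgeR quasi-likelihood adjusted p = 6.53e-06). Of the 100-base stretches of the Acadvl transcript, 8.26% also occurred in Dvl2. Acadl, for long chains, stood at 923, 906 and 910 CPM and then at 831, 829 and 872 CPM. The AKG libraries were all below the Controls by a small margin, and the log2 fold change of -0.11 (SE 0.0794, adjusted p = 0.252) did not pass, while with total counts it was 0.33 (adjusted p = 0.0045). Acadm, for medium chains, fell by 0.29 (SE 0.0855, adjusted p = 0.0132), from 522 ± 26.9 to 428 ± 32.2 CPM. Its call was lost without Control replicate 2 (adjusted p = 0.0533) or Control replicate 3 (0.0602), in a range of 0.00214 to 0.172 over 15 alternatives, and with total counts the value was 0.16 (0.172). Acads, for short chains, fell by 0.61 (SE 0.0771), from 164 ± 12.1 to 107 ± 3.12 CPM. With total counts Acads had a log2 fold change of -0.17 that did not pass (0.135).

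The subunits of the mitochondrial trifunctional protein moved apart. Hadha encodes the α subunit, with hydratase and dehydrogenase activity for long chains, and Hadhb the β subunit with thiolase activity, and the enzyme holds both. Hadha stood at 744, 849 and 819 CPM in the Controls and 846, 822 and 967 CPM after AKG, with overlap and a log2 fold change of 0.13 (SE 0.0928, edgeR quasi-likelihood adjusted p = 0.272). Hadhb stood at 842, 909 and 921 CPM and then at 602, 598 and 662 CPM, with all AKG libraries below all Controls, and fell by 0.52 (SE 0.0847, adjusted p = 0.000195). With total counts Hadha was higher (0.57, adjusted p = 0.000292) and Hadhb had a value of -0.076 (0.514). Within libraries the log2 ratio of Hadha to Hadhb counts was -0.148 ± 0.0439 in the Controls and 0.499 ± 0.0449 after AKG, a 1.57-fold shift without overlap (p = 0.1 in the exact two-sided permutation test). It moved by 0.62 to 0.67 with each library left out. Of the 100-base stretches of the Hadhb transcript 52.8% also occurred in Gm13910 or Gm9108, and of Hadha 0%. Neither Gm13910 nor Gm9108 was found by name among the 22063 rows, so how reads of Hadhb were assigned is uncertain.

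The stretch of genome that both promoter windows cover is shown because the ratio of its products changed. The RefSeq starts of Hadha, on the minus strand, and Hadhb, on the plus strand, lie 273 bases apart on chromosome 5. Below are the 228 shared bases, chr5:30155003-30155230 of GRCm38.p6, written in the direction of Hadhb, with the single GC box GGGCGG in capitals.
Hadha-Hadhb: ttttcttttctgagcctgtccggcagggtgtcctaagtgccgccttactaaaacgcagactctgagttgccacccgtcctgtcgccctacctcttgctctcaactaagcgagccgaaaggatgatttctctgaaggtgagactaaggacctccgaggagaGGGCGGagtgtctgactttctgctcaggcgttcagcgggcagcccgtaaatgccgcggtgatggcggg

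Of the enzymes of the later steps and of unsaturated chains, Hadh, Echs1, Acaa2, Decr1 and Eci1 fell and Eci2 did not pass. The short-chain hydroxyacyl-CoA dehydrogenase Hadh (396 ± 20.5 to 306 ± 11.8 CPM), the enoyl-CoA hydratase Echs1 (142 ± 13.0 to 105 ± 7.57 CPM) and the thiolase Acaa2 (795 ± 54.9 to 611 ± 19.98 CPM) had log2 fold changes of -0.37, -0.44 and -0.38. These values were 0.073, 0.0069 and 0.063 with total counts, and none then passed. Decr1, the dienoyl-CoA reductase for polyunsaturated chains, fell from 310.0 ± 8.14 to 191 ± 4.70 CPM, by 0.70 on the log2 scale (SE 0.0735, edgeR quasi-likelihood adjusted p = 4.94e-06), and by 0.25 with total counts (adjusted p = 0.0221). Eci1 and Eci2 are both enoyl-CoA isomerases, which move a double bond so that the cycle can go on. Eci1 fell from 192, 183 and 208 CPM to 129, 142 and 120 CPM (log2 fold change -0.58, SE 0.0847, adjusted p = 8.37e-05), and with total counts the value was -0.13 (0.173). Eci2, which is also found in peroxisomes, stood at 116, 117 and 126 CPM and then at 127, 131 and 128 CPM. Its AKG libraries lay just above the Controls, and the log2 fold change of 0.11 (SE 0.0703, adjusted p = 0.227) did not pass, though it did with total counts (0.55). The log2 ratio of Eci1 to Eci2 went from 0.698 ± 0.0456 to 0.0128 ± 0.107, to 0.622 of its Control value, without overlap (exact two-sided permutation p = 0.1).

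The electron transfer flavoprotein takes electrons from the acyl-CoA dehydrogenases and hands them to its own dehydrogenase, which reduces coenzyme Q. Etfb, the β subunit, stood at 510, 460 and 542 CPM in the Controls and 227, 247 and 212 CPM after AKG. It fell by 1.14 on the log2 scale (SE 0.0904, edgeR quasi-likelihood adjusted p = 3.92e-07), and by 0.70 with total counts (adjusted p = 4.27e-06). Etfa, the α subunit of the same dimer, fell less, from 267 ± 9.30 to 206 ± 3.82 CPM (log2 fold change -0.38, SE 0.0733), a value that was 0.068 with total counts. Etfdh, the dehydrogenase, fell from 332 ± 29.4 to 239 ± 31.0 CPM (log2 fold change -0.48, SE 0.101, and -0.031 with total counts). The log2 ratio of Etfa to Etfb moved from -0.915 ± 0.134 to -0.150 ± 0.113, a 1.70-fold shift without overlap (exact two-sided permutation p = 0.1). Of the 100-base stretches of the Etfb transcript 65.2% also occurred in Gm45233, which was not found by name among the 22063 rows, and of Etfa 0%.

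**Figure D4:**
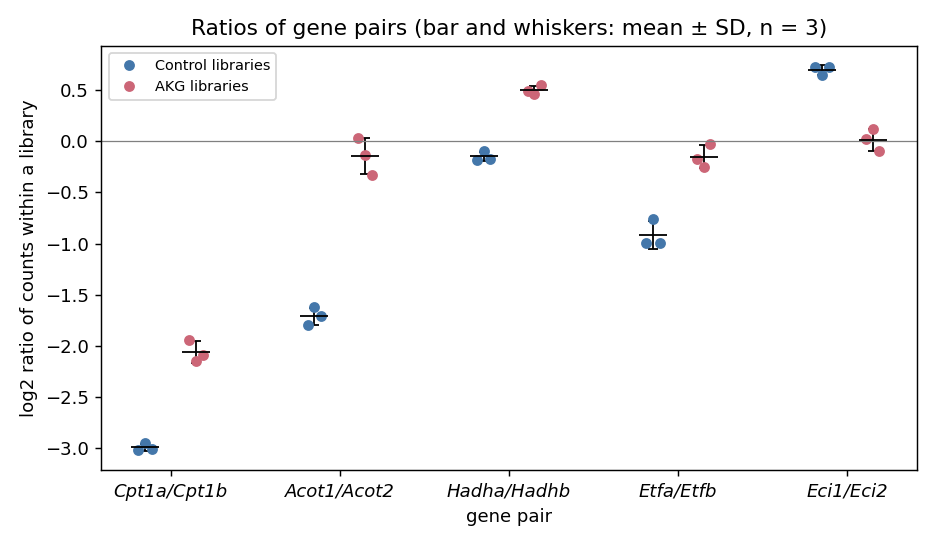
Points give the log2 ratio of the counts of 2 genes within each library for 5 pairs, with the group mean and SD. For each of these pairs the 3 AKG libraries lay apart from the 3 Controls, upward for Cpt1a over Cpt1b, Acot1 over Acot2, Hadha over Hadhb and Etfa over Etfb, and downward for Eci1 over Eci2.

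Among the acyl-CoA thioesterases, which split acyl-CoA into free fatty acid and coenzyme A, Acot1 had the largest rise of any tested member. Acot1, the cytosolic enzyme, stood at 25.1, 24.0 and 21.9 CPM in the Controls and 124, 98.2 and 105 CPM after AKG. The groups lay far apart, and the gene rose by 2.21 on the log2 scale, or 4.61-fold (SE 0.0986, edgeR quasi-likelihood adjusted p = 4.53e-09). Acot2, the mitochondrial enzyme, rose from 87.0, 73.9 and 71.8 CPM to 122, 108 and 133 CPM (log2 fold change 0.64, SE 0.0948, adjusted p = 9.88e-05). Both rises passed under all 15 alternatives, from 2.06 to 2.65 for Acot1 and from 0.48 to 1.09 for Acot2. Per length, Acot1 had 0.358 of the FPKM of Acot2 in the Controls and 1.003 of it after AKG. Their log2 count ratio went from -1.71 ± 0.0840 to -0.145 ± 0.179, a 2.96-fold shift without overlap (exact two-sided permutation p = 0.1). The transcripts are near copies in part: 21.9% of the 100-base stretches of Acot1 and 17.1% of those of Acot2 also occurred in another gene, chiefly each other, so how reads were split between these neighbours is uncertain.

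Acot1 and Acot2 lie in the same orientation on chromosome 12, with RefSeq starts 21641 bases apart. Their promoter windows are shown because both genes rose, by different amounts. They are chr12:84009252-84009551 and chr12:83987611-83987910 of GRCm38.p6, both on the plus strand, and capitals mark CCAAT on either strand.
Acot1: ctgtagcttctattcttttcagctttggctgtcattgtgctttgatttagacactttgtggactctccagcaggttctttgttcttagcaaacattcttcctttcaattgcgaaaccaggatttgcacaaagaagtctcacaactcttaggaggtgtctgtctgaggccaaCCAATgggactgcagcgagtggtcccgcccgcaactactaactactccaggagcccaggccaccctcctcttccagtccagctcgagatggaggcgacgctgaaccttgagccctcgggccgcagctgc
Acot2: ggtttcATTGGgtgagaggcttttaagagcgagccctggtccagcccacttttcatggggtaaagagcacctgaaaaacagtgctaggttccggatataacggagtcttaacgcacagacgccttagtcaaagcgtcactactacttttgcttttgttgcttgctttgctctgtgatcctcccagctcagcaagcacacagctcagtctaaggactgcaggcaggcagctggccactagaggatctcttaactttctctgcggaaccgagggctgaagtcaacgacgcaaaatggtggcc
Aligned end to end, these windows were identical at 50.3% of columns, while the unrelated windows of Acot1 and Cpt1a gave 50.7% with the same settings. The likeness of the transcripts was not seen in this end-to-end alignment, which can miss a short or shifted shared stretch.

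Acot13 and Ucp3 fell. Acot13, a small thioesterase of the mitochondrial surface, stood at 186, 182 and 187 CPM in the Controls and 88.8, 114 and 92.9 CPM after AKG, and fell by 0.91 on the log2 scale (SE 0.0927, edgeR quasi-likelihood adjusted p = 3.68e-06). Ucp3, an inner-membrane carrier that is regulated together with fatty acid use in muscle, fell from 101, 92.7 and 96.4 CPM to 54.7, 52.6 and 64.5 CPM (log2 fold change -0.76, SE 0.0852, adjusted p = 8.67e-06). In both genes every AKG library lay below every Control, and both stayed lower with total counts (-0.47 and -0.31).

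Ketone use was represented by Oxct1, since Bdh1 could not be tested. Oxct1 encodes the transferase that activates acetoacetate and is the step that lets a tissue burn ketone bodies. It stood at 272, 318 and 392 CPM in the Controls and 75.3, 97.0 and 103 CPM after AKG. Every AKG library lay far below the lowest Control, and Oxct1 had the largest fall of any tested member (log2 fold change -1.84, SE 0.160, edgeR quasi-likelihood adjusted p = 2.78e-05), or 3.57-fold. With total counts the fall was 1.39. Of the 100-base stretches of the Oxct1 transcript 10.8% also occurred in BC037032, which was not found by name among the 22063 rows. The mitochondrial hydroxybutyrate dehydrogenase gene Bdh1 had 2, 6 and 2 counts in the Controls and 3, 1 and 7 counts after AKG, about the level of the 3 counts taken as the floor, so that no fold change is given. The pair of Bdh1 and Oxct1 was among the 6 ratios tested, with overlap between groups (exact two-sided permutation p = 0.2), and its value rests on these few counts.

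Other genes of the pathway, taken from a list of 67 that holds none of the members, were counted in the same fit. Of 60 that passed the low-count filter 29 were lower and 13 higher (median -0.30), beside 25.2% and 25.0% of all genes. With total counts as the scaling 10 were lower and 27 higher, where 9.12% and 56.7% of all genes were. In β-oxidation, 10 of 17 fell and 1 rose. The falls with the smallest p were those of the peroxisomal acyl-CoA transporter Abcd3 (120 to 74.5 CPM), the dienoyl-CoA isomerase Ech1 (874 to 474 CPM), the peroxisomal thiolase Acaa1a (59.5 to 40.8 CPM) and Acad10 (8.63 to 4.31 CPM), of which Acaa1a alone did not pass with total counts. In the shuttle list, the carnitine importer Slc22a5 fell from 32.9 to 19.5 CPM and the carnitine acetyltransferase Crat from 388 to 288 CPM, while the peroxisomal octanoyltransferase Crot rose from 28.3 to 40.9 CPM and the acetyl-CoA carboxylase Acaca from 9.58 to 13.5 CPM. With total counts Crat had a log2 fold change of 0.016 and did not pass, and the other 3 kept their calls.

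Acyl-CoA synthetase isoforms, a monocarboxylate transporter and an acetyl-CoA synthetase outside the members changed. Acsl3, an acyl-CoA synthetase abundant in the fetal heart, rose from 7.42, 8.07 and 6.40 CPM to 35.0, 28.5 and 38.5 CPM (log2 fold change 2.22, SE 0.134, edgeR quasi-likelihood adjusted p = 4.13e-08), while Acsl1 did not pass. Acsl6 fell from 1.68 to 0.341 CPM, on 32, 20 and 22 counts in the Controls and 8, 3 and 7 after AKG. Its AKG values thus lay near the 3 counts taken as the floor. The acyl-CoA binding protein gene Dbi fell from 87.9 to 51.7 CPM and Got2, whose protein was also described as a fatty acid carrier, from 724 to 457 CPM, though Got2 did not pass with total counts. Slc16a1, the monocarboxylate transporter that carries ketone bodies and lactate, fell from 144, 136 and 126 CPM to 72.0, 64.9 and 73.7 CPM (log2 fold change -0.94, SE 0.0798), and the mitochondrial acetyl-CoA synthetase Acss1 fell from 107 to 53.2 CPM. Acsl3 rose, and Slc16a1 and Acss1 fell, under all 15 alternatives.

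**Figure D5:**
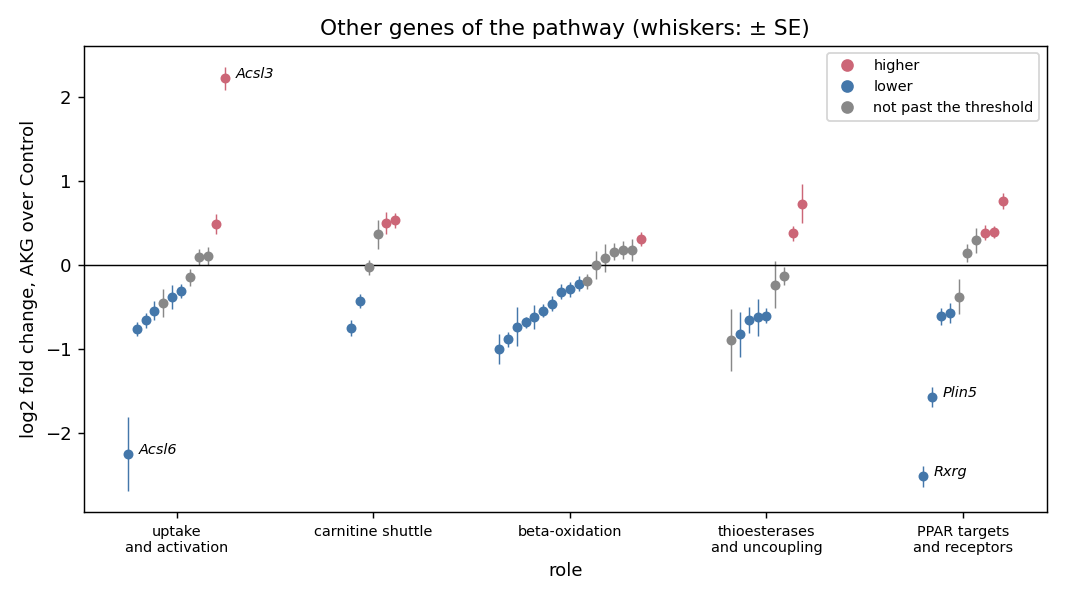
Points give the log2 fold change with TMM scaling of the tested genes of the list outside the members, ketone genes left out, with SE as whiskers, sorted within each role and coloured by call. Acsl3 stands far above the rest, and Rxrg, Acsl6 and Plin5 far below. The value of Acsl6 rests on 8, 3 and 7 counts in the AKG libraries.

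Thioesterase and uncoupling genes outside the members gave 4 falls and 2 rises among 9, beside 25.2% and 25.0% of all genes. Ucp2 fell from 234 to 154 CPM, Them4 from 10.1 to 6.43 CPM and Acot4 from 3.64 to 2.04 CPM, none of which passed with total counts, and the cytosolic thioesterase Acot7 rose from 38.5 to 49.9 CPM in both fits. Acot3, a further gene of the Acot1 family, stood at 2.76 ± 0.678 and 2.33 ± 0.521 CPM and did not pass (adjusted p = 0.504).

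Receptors and targets of the PPAR family moved both ways. Of 10 tested, 4 fell and 3 rose, beside 25.2% and 25.0% of all genes. Of the 54 tested genes that the deposited annotation put in the PPAR signalling pathway, 19 were lower and 15 higher (median -0.078). Rxrg, the retinoid X receptor isoform of muscle, fell from 38.5, 31.0 and 40.7 CPM to 6.46, 6.65 and 6.16 CPM (log2 fold change -2.51, SE 0.123, edgeR quasi-likelihood adjusted p = 8.35e-09), while Rxra rose from 35.3 to 59.6 CPM. Plin5, a lipid droplet protein at mitochondria, fell from 113 to 37.7 CPM and Cidea from 27.8 to 18.2 CPM, the latter not with total counts. Ppara stood at 5.07 ± 0.618 and 3.89 ± 0.859 CPM (adjusted p = 0.151), and Pdk4, a target that restrains glucose oxidation, at 635 ± 17.3 and 700 ± 121 CPM (0.306), though with total counts Pdk4 was higher (log2 fold change 0.59). Among the members, the deposited annotation put 11 in the PPAR signalling pathway. Of these 11, 4 fell and 2 rose (median -0.094). Among the other 20 tested members 16 fell and 2 rose (median -0.48). These counts describe the lists, and the difference between them was not tested.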

How the data were processed

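The members, the gene lists and the tests were chosen with earlier results of these data known. For each of 22063 genes the deposited table gave, in every library, the authors' estimated count and the authors' FPKM. Counts in it were whole, with 60 zeros beside an FPKM above 0, as rounding of estimates would give. The authors' deposited log2 fold change compared group means of FPKM, with a deposited p-value and false discovery rate; these were not used for any result. Tools listed in the submitters' processing notes, with no role, were RSEM 1.2.19, HISAT2 2.1.0 and DESeq2 1.20.0. The build is not given in the sources used here. FPKM is scaled to each library's total, so a fall of abundant transcripts raises it for all other genes.

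Counts were tested in R 4.3.3 with edgeR 4.0.16 (filterByExpr with minimum count 10 and minimum total 15, TMM scaling, robust quasi-likelihood test, Benjamini-Hochberg adjustment over 13117 genes, threshold 0.05), tested first on simulated data. The SE is the size of the log2 fold change over the square root of F. Ratios of gene pairs were compared by exact permutation. All 32 members were named, and of other pathway genes up to 4 per role with the smallest p among those past the threshold; Acot3, Ppara and Pdk4 were added after their values had been seen, and some genes are not reported here. Replicate libraries differed by more than sampling noise (chi-square per degree of freedom 6.36 to 20.2). Alternatives were other scalings, DESeq2 1.42.0, limma 3.58.1 on log2(FPKM + 1) and log2(FPKM + 0.1) for genes at FPKM 1 or more in 3 libraries, no filter, a replicate block, each library left out, and AKG 2 alone. Shared stretches came from GENCODE M21 transcripts, with which all 32 members were matched by gene identifier, and promoters from RefSeq by symbol.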

Additional observations from a re-analysis of the deposited data

How the results depend on the processing

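Results depended mainly on the scaling. Members higher after AKG numbered 12 with total counts, with log2(FPKM + 1) and with log2(FPKM + 0.1), and members lower numbered 7, 8 and 8. All genes higher numbered 7431, 6722 and 6709, and all genes lower 1196, 1075 and 1070. Other pathway genes numbered 27, 25 and 25 higher and 10, 9 and 9 lower. By construction these settings scale to the library total, which holds the mitochondrially encoded counts. In the same order of settings, log2 fold changes turned positive for Angptl4 (0.35, 0.30 and 0.31), Cpt1b (0.092, 0.066 and 0.066), Mlycd (0.25, 0.24 and 0.25), Acadl (0.33, 0.33 and 0.33), Acadm (0.16, 0.16 and 0.16), Hadh (0.073, 0.072 and 0.072), Echs1 (0.0069, 0.0078 and 0.0079), Acaa2 (0.063, 0.064 and 0.064) and Etfa (0.068, 0.068 and 0.069). With AKG 2 alone, a lone library with no spread of its own, Acsl1 was at -0.090, and the log2 ratio moved to 0.84 for Cpt1a to Cpt1b, -0.58 for Eci1 to Eci2 and 0.086 for Bdh1 to Oxct1. The cause was not tested. Leaving out 1 library at a time gave -0.029 to 0.13 for Cd36, -0.0015 to 0.18 for Lpl, -0.15 to 0.0097 for Angptl4 and -0.041 to 0.14 for Acsl1. Over these settings 3 to 4 members were higher and 18 to 20 lower. Of all 13296 to 13323 genes tested, 2751 to 3296 were higher and 2845 to 3243 lower. Of 465 values of single genes under alternatives, 390 kept direction and call, and 33 changed sign, whatever became of their call. Of those that kept their sign, 27 lost their call and 15 gained one. Calls lost or gained together with a change of sign are not in these last counts.

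Same-numbered libraries were not taken as paired, because their deviations from the group means correlated at 0.286, -0.143 and 0.0856, and Control 2 correlated best with AKG 3 (0.132). With the replicate number as a block 4 members were higher and 20 lower, and 3257 and 3314 of all genes. Bdh1, at 1 to 7 counts per library, lay below what this depth can compare.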
